A study of Arabidopsis thaliana with 9 samples.

Results

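The 3 arrays of seedlings carrying a non-mutated SPL13 transgene were set against the 3 arrays of untransformed Col-0 seedlings, which together are 6 of the 9 arrays of the study. They were taken by their genotype label alone. SPL13 seedlings are Arabidopsis thaliana Col-0 transformed with the unaltered SPL13 gene under its own promoter, so the transgene keeps the site through which the microRNA miR156 acts. Col-0 seedlings are the untransformed wild type of the same accession. The other 3 arrays are of mSPL13 seedlings, in which the transgene no longer answers to miR156, and they entered the estimate of the spread and the filter on low signal, while their signals are given beside a few results. All seedlings were 3 days old, counted from the move to light at 22 °C after 3 days in the dark at 4 °C, on medium with 1% sucrose. RNA came from whole seedlings, 10 µg of total RNA was labelled per array, and the labels describe the replicates of a genotype as biological, with separate seed lots. The labels do not say how many transformed lines the SPL13 arrays stand for, how many copies of the transgene they hold or where these lie.

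SPL13 belongs to the SQUAMOSA promoter-binding protein-like (SPL) transcription factors of plants. MiR156 is abundant in young seedlings and keeps many SPL factors low by cutting their messenger RNA and blocking its translation, and its decline lets the plant pass from juvenile to adult growth. A further copy of SPL13 that keeps the miR156 site adds promoter and coding sequence while leaving this brake in place. Such an array reads out transcripts of every genome of the cell. The nuclear genome encodes most genes, whereas the plastid genome encodes core subunits of the photosynthetic complexes, part of the plastid ribosome and the core of the plastid-encoded RNA polymerase, and the mitochondrial genome encodes parts of the respiratory chain. Plastid genes are also read by phage-type RNA polymerases that the nucleus encodes, and many lie in clusters that are transcribed together and cut afterwards.

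The array holds 22746 probe sets (groups of short probes to 1 target) besides its controls, and 13647 of them were bright enough to be tested. The median signal of an array was 178 to 184.7 in SPL13 and 176 to 189.2 in Col-0. Outside the organelle genomes, Col-0 replicate 3 was nearer to the SPL13 arrays than to the other Col-0 arrays. The log2 signals of Col-0 replicate 3 differed from those of SPL13 replicates 1, 2 and 3 with an SD of 0.274, 0.266 and 0.23 over probe sets, and from those of Col-0 replicates 1 and 2 with an SD of 0.333 and 0.314. At least 2-fold differences were found at 68, 41 and 14 probe sets in the first 3 pairs and at 134 and 93 in the other 2 pairs. Col-0 replicates 1 and 2 differed from each other with an SD of 0.304, and at 68 probe sets by at least 2-fold. A control probe set of the array, U12639, had a signal of 2.3 in Col-0 replicate 3 and of 25867 to 27665 in the SPL13 arrays. By that measure Col-0 replicate 3 was with the other Col-0 arrays (29.7 and 3.1), though the transcript that U12639 detects is not known here. Counts of calls are also given without Col-0 replicate 3, and genes named here whose call turned on that array are given beside their values or at the end. It was singled out for lying near the SPL13 arrays, so leaving it out favours larger differences and smaller p values. Values without it describe this dependence and are not further support.

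The signal of very few transcripts outside the organelles differed between SPL13 and Col-0 seedlings beyond the spread of the replicates, while transcripts of the plastid genome had lower signals in SPL13 almost throughout. Of the 13647 probe sets tested, 7 passed (limma, adjusted p under 0.05 over all of them), which is 0.0513%. Of these, 2 were higher in SPL13 (0.0147%) and 5 were lower (0.0366%). The 2 higher probe sets have no gene listed. The 5 lower ones were probe sets of the plastid genes psbT, rpoA, rps15 and rps12 and of the nuclear gene AFR. Another probe set of rps12 did not pass. At an unadjusted p under 0.05 there were 592 higher (4.34%) and 613 lower (4.49%) probe sets. Over all tested probe sets the median log2 fold change was 0.01.

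**Figure D1:**
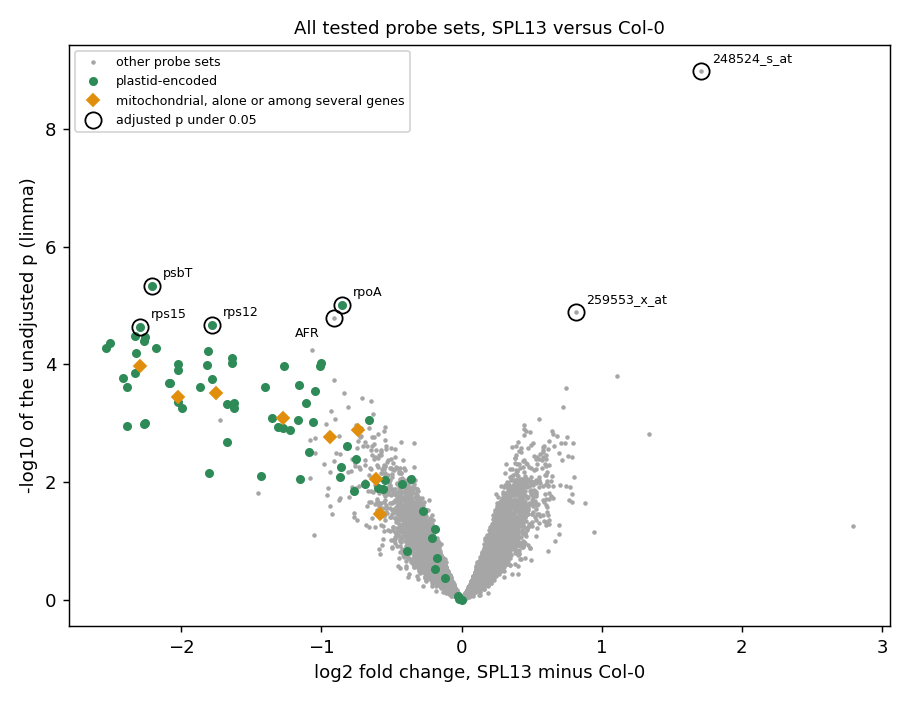
Each of the 13647 tested probe sets is drawn at its log2 fold change, SPL13 minus Col-0 (x axis), and the -log10 of its unadjusted limma p (y axis). Plastid-encoded probe sets (green) and those of mitochondrial genes, alone or among several genes (orange), all lie at or left of 0, and the 7 circled probe sets have an adjusted p under 0.05.

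Of the 7, the probe set 248524_s_at differed most clearly. Its signal was 1159.8, 1438.5 and 1378 in SPL13 and 412, 389.5 and 369 in Col-0. All SPL13 arrays were high and close to each other, and the groups were far apart. The log2 fold change was 1.71 ± 0.12 (SE), with an adjusted p of 1.41e-05. In mSPL13 the probe set had signals of 4381.8, 3722 and 3821. No table used here names its gene, so it is given by its identifier. None of the 15 SPL genes of the list, SPL13 among them, has a probe set that the table names. Whether 248524_s_at or another unnamed probe set detects SPL13 was not determined, so no signal is given as that of SPL13. The call held in 19 of the 19 other settings tried, with a log2 fold change of 1.53 to 1.80.

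The probe set 259553_x_at, also without a listed gene, had signals of 1411, 1266 and 1299.5 in SPL13 and 884, 659.5 and 707.5 in Col-0. All SPL13 arrays lay above all Col-0 arrays. Its log2 fold change was 0.81 ± 0.12 (SE, adjusted p = 0.0436), and the call was lost in 7 of 19 other settings.

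AFR (AT2G24540, on chromosome 2), an F-box protein with kelch repeats that acts in far-red light signalling through phytochrome A, was the nuclear gene of known name that fell in SPL13. Its signals were 259, 256 and 259 in SPL13 and 589, 494 and 435 in Col-0. The SPL13 arrays were nearly equal, and each Col-0 array was higher than all of them. The log2 fold change was -0.91 ± 0.14 (SE, adjusted p = 0.0437). In mSPL13 its signals were 258, 255 and 317. The call was lost in 9 of 19 other settings, among them the fit without the organelle-encoded probe sets, a setting chosen after seeing the data.

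**Figure D2:**
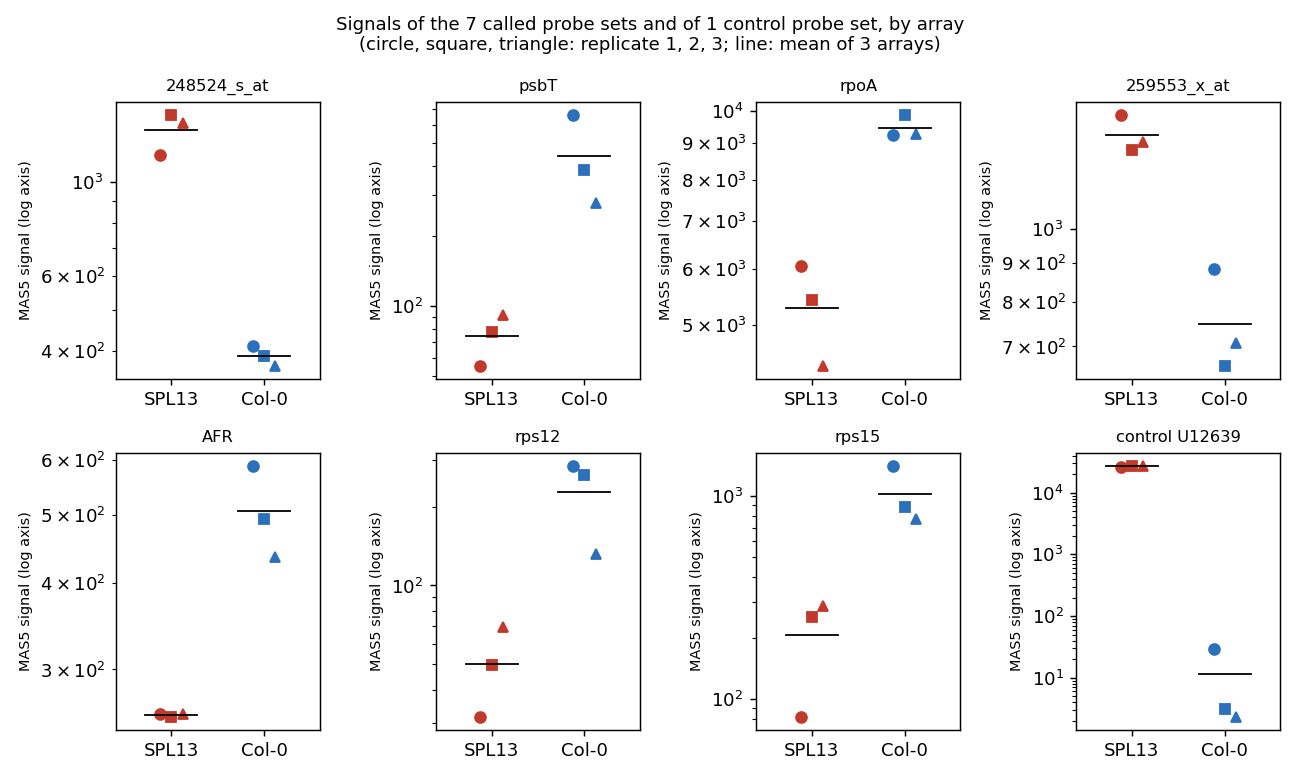
Signals (MAS5, log axis) of the 7 called probe sets and of the control probe set U12639, with SPL13 in red on the left and Col-0 in blue on the right of each panel. Symbols are replicates 1 (circle), 2 (square) and 3 (triangle) and lines are means of 3 arrays. In every panel the groups do not overlap.

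Plastid-encoded transcripts formed the bulk of the large differences. The array has 69 probe sets that pair with 1 plastid gene, and 66 passed the filter on low signal (petD, ndhF and atpI did not). Of the 66, 5 (ndhH, psbT, psbN, rpoB and petN) averaged below the filter level in SPL13 and so passed it through the other genotypes. With no filter the median log2 fold change was -1.28. Of the 66, 3 fell, 0 rose, and a further 24 had an adjusted p of 0.05 to 0.1. At an unadjusted p under 0.05, 58 were lower and 0 higher. All 66 log2 fold changes were negative, with a median of -1.33 and a range that reached -2.51. The SPL13 and Col-0 arrays did not overlap for 55 of the 66, all lower in SPL13, where the share over all tested probe sets was 6.07%. The 5 that passed the filter through the other genotypes are in these counts, and their choice favours a lower SPL13 signal. Without them 61 of 61 were negative, with a median of -1.35. Of the 61, 51 were lower with groups apart, where 779 of 13470 probe sets chosen in the same way were. A difference of at least 2-fold with groups apart was found for 45 of the 66, against 0.41% of all tested probe sets. That makes 45 of the 56 probe sets on the array that were so much lower. Outside the organelles, 97.8% of the 13567 tested probe sets had a log2 fold change within 0.5 of 0. A lower signal from fewer plastids or plastid genome copies and from less RNA per copy cannot be told apart in whole seedlings.

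The size of the shift varied among the SPL13 arrays. Relative to the Col-0 mean, the median plastid-encoded probe set stood at -2.35, -0.99 and -0.80 on the log2 scale in SPL13 replicates 1, 2 and 3, against 0.18, 0.06 and -0.28 in Col-0 replicates 1, 2 and 3. In mSPL13 it stood at 0.15, -0.03 and 0.30, which is near the Col-0 arrays. SPL13 replicate 1 was by far the lowest array, but replicates 2 and 3 were also below every Col-0 array. SPL13 replicate 1 was below the mean of SPL13 replicates 2 and 3 for 63 of the 66 genes, with a median difference of -1.30. Counted array by array, 63, 61 and 56 of the 66 genes were below every Col-0 array in SPL13 replicates 1, 2 and 3 (95.5%, 92.4% and 84.8%), against 24.9%, 21.4% and 23% of the probe sets outside the organelles. Without SPL13 replicate 1 the plastid median was -0.88, and 13 of the 66 genes fell, where 0.11% of all tested probe sets did. Leaving out SPL13 replicate 3 gave 30 plastid-encoded probe sets that passed, among 37 on the whole array, of which 4 lay outside the organelles. Leaving out Col-0 replicate 3 gave 33, among 148 on the whole array, of which 107 lay outside the organelles. Of all tested probe sets, 0.747% were called lower in that last setting. None passed (0 of 66) when SPL13 replicate 2, Col-0 replicate 1 or Col-0 replicate 2 was the array left out.

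**Figure D3:**
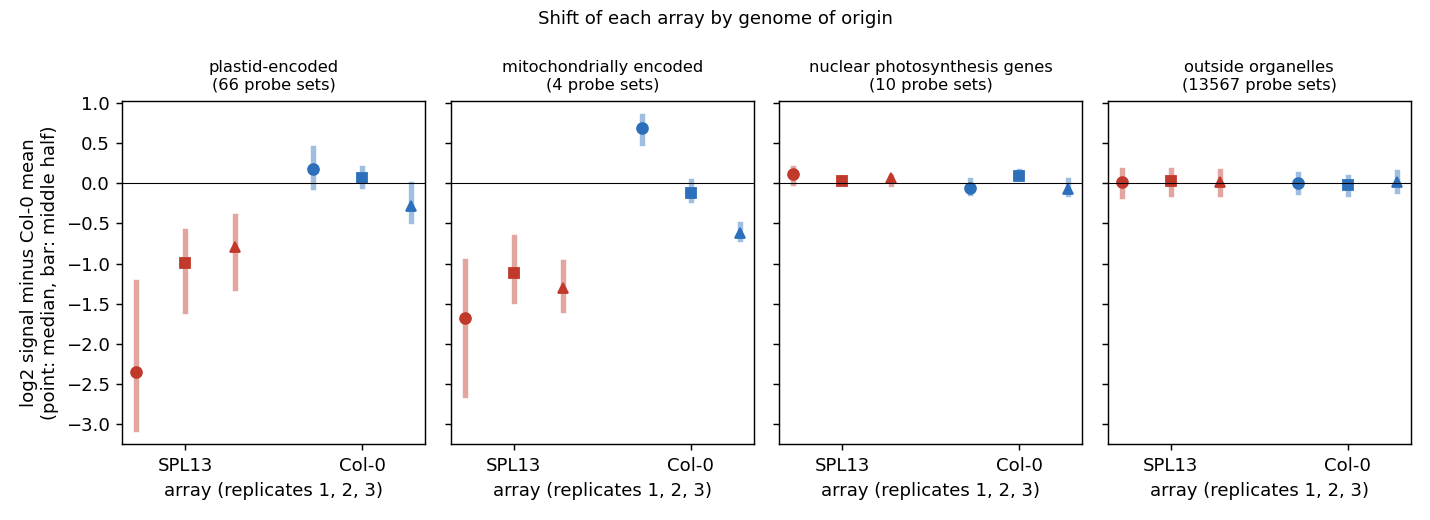
Median (point) and the range from the lower to the upper quartile (bar) of the log2 signal minus the Col-0 mean in each array, SPL13 in red and Col-0 in blue, for plastid-encoded, mitochondrially encoded, nuclear photosynthesis and all other probe sets. The 3 SPL13 arrays lie below the 3 Col-0 arrays in both organelle panels and close to 0 in the other panels.

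Transcripts of photosystem I were among those with the largest differences. The photosystem I genes, whose products form the complex that reduces ferredoxin, had a median log2 fold change of -1.99 (5 genes, of which 0 passed and 5 were apart). The gene of its reaction centre protein psaA had signals of 82.8, 611 and 814 in SPL13 and 2004, 3414 and 1099 in Col-0. SPL13 replicate 1 was the lowest array by a wide margin, and the groups did not overlap. The log2 fold change was -2.39 ± 0.58 (SE, adjusted p = 0.221). Signals of psaC, which carries iron-sulphur clusters, were 86.3, 267 and 299 in SPL13 and 1309, 1021 and 771 in Col-0. Here too each SPL13 array was below each Col-0 array, with a log2 fold change of -2.27 ± 0.38 (SE, adjusted p = 0.054).

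In photosystem II, the complex that oxidises water, 1 of 15 genes fell and 10 were apart, with a median of -1.40. The gene that fell was psbT, a small subunit of the complex, with signals of 55.3, 77.3 and 91.6 in SPL13 and 664, 384 and 277.5 in Col-0. The SPL13 arrays were all low, the Col-0 arrays spread more than 2-fold, and the groups were far apart. In mSPL13 its signals were 776, 567 and 1359. Its log2 fold change was -2.21 ± 0.31 (SE, adjusted p = 0.0312). In SPL13 psbT averaged below the filter level, which it passed through the other genotypes. The call was lost in 5 of 18 other settings, among them the one with no filter on low signal. The reaction centre protein psbA (D1) had signals of 199, 262 and 319 in SPL13 and 3613, 1205 and 506 in Col-0. The Col-0 arrays differed more among themselves than the SPL13 arrays did, and Col-0 replicate 3 was the lowest of them. With a log2 fold change of -2.27 ± 0.55 (SE), psbA did not pass (adjusted p = 0.216). Without Col-0 replicate 3 its log2 fold change was -2.93 ± 0.48 (SE, adjusted p = 0.0127), a value favoured by leaving out the Col-0 array nearest to SPL13. The antenna protein gene psbB had a similar spread, with signals of 127, 201 and 278 in SPL13 and 2177, 1498 and 301 in Col-0. Its Col-0 replicate 3 was close to SPL13 replicate 3, though the groups did not overlap. Its log2 fold change was -2.26 ± 0.54 (SE, adjusted p = 0.212), and without that array it was -3.09 ± 0.35 (SE, adjusted p = 0.00245).

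Not all photosystem II genes had such values. For psbE and psbF, the subunits of cytochrome b559, the log2 fold changes were -0.03 ± 0.15 (SE) and -0.12 ± 0.15 (SE). Signals of psbE were 3284, 3815 and 4911.5 in SPL13 and 3561, 4240.5 and 4309.8 in Col-0, and the groups overlapped. The gene psbM had signals of 13513, 21867 and 10358.5 in SPL13 and 8737, 16605 and 22062 in Col-0. These varied about as much within a group as over both, and the log2 fold change was -0.02 ± 0.34 (SE). The genes psbJ, psbL, psbI and psbZ lay between -0.59 and -0.19.

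The cytochrome b6f complex links the photosystems, and its 5 genes had a median of -1.15, with 0 that passed and 3 apart. Its small subunit gene petL had signals of 136, 327 and 591 in SPL13 and 2102, 1307 and 1281 in Col-0. Every SPL13 array was more than 2-fold below the lowest Col-0 array, and the log2 fold change was -2.26 ± 0.38 (SE, adjusted p = 0.051). By contrast petN, another small subunit, had overlapping groups and a log2 fold change of -0.39 ± 0.25 (SE). In the ATP synthase the 5 genes were all apart, with a median of -1.35 and 0 that passed. The values ran from -2.39 ± 0.49 (SE) for atpF, a subunit of the stalk, to -0.69 ± 0.23 (SE) for atpE, a subunit of the catalytic part. Signals of atpF were 268, 1005 and 1199 in SPL13 and 5928, 4394.5 and 1947 in Col-0, those of atpE 8336, 18247.5 and 20461 in SPL13 and 23877.5, 23682 and 23195 in Col-0. In both, SPL13 replicate 1 was lowest, and for atpE the 2 other SPL13 arrays were nearer to Col-0 than to it.

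The NDH complex carries electrons around photosystem I, and 8 of its 9 genes were apart, with a median of -1.17 and 0 that passed. The largest difference was that of ndhD, with signals of 515, 1678 and 2114 in SPL13 and 6113, 5758 and 3668 in Col-0 and a log2 fold change of -2.02 ± 0.38 (SE, adjusted p = 0.0599). Its groups did not overlap, whereas those of ndhC did, at a log2 fold change of -0.21 ± 0.11 (SE). The large subunit of Rubisco, the enzyme that fixes carbon dioxide, is encoded by rbcL. Its signals were 164, 557 and 631 in SPL13 and 2658, 1751 and 1103 in Col-0, with each SPL13 array below each Col-0 array. The log2 fold change was -2.09 ± 0.42 (SE, adjusted p = 0.0872). The 4 genes for assembly and membrane factors, ycf3, ycf4, ccsA and cemA, were all apart, between -1.67 and -1.22.

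The genes for gene expression in the plastid had values of the same order as those for photosynthesis. Of the 4 core subunits of the plastid-encoded RNA polymerase, 1 fell and all were apart, with a median of -1.69. The gene that fell was rpoA, with signals of 6039, 5418 and 4375 in SPL13 and 9242, 9866 and 9263 in Col-0. In this gene SPL13 replicate 3 and not replicate 1 was lowest, and the Col-0 arrays were nearly equal. In mSPL13 the signals were 8486, 7455 and 9478. Its log2 fold change was -0.85 ± 0.13 (SE, adjusted p = 0.0436), a call lost in 6 of 18 other settings. The largest difference of all plastid genes with 1 copy was that of rpoC1, with signals of 164, 656 and 828 in SPL13 and 4055, 2351.5 and 2017 in Col-0. The groups were far apart, and the log2 fold change was -2.51 ± 0.43 (SE, adjusted p = 0.054). The gene rpoC2 had a log2 fold change of -2.33 ± 0.39 (SE) and rpoB one of -1.04 ± 0.22 (SE).

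Of the 8 genes of the small ribosomal subunit, 1 fell and 6 were apart, with a median of -1.34. The gene that fell, rps15, had signals of 81.5, 253 and 287.5 in SPL13 and 1414, 882 and 767 in Col-0. SPL13 replicate 1 was the lowest array, and all SPL13 arrays were below all Col-0 arrays. In mSPL13 the signals were 968, 837 and 1803. The log2 fold change was -2.30 ± 0.37 (SE, adjusted p = 0.0443), and the call was lost in 11 of 18 other settings. Signals of rps14 were 111, 108 and 145 in SPL13 and 118, 152 and 96.0 in Col-0, with groups that overlapped fully. Of the 7 genes of the large ribosomal subunit, 0 passed and 6 were apart, with a median of -1.09 and a range of -2.08 for rpl20 to -0.17 for rpl22. Among the remaining genes, clpP, a subunit of the plastid Clp protease, had signals of 787, 3463 and 4723 in SPL13 and 15326, 11731 and 9332 in Col-0. Its groups did not overlap, and the log2 fold change was -2.33 ± 0.45 (SE, adjusted p = 0.0739). The values of accD, a subunit of acetyl-CoA carboxylase, and of matK, a factor for intron splicing, were -2.02 ± 0.39 (SE) and -0.86 ± 0.26 (SE).

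Some plastid genes lie in the inverted repeat, and their probe sets pair with both copies. Of 8 such probe sets 6 were tested, all 6 were lower with groups apart, and their median was -1.33. A probe set of rps12, a protein of the small ribosomal subunit, fell, with signals of 31.5, 49.7 and 69.2 in SPL13 and 287, 265 and 132 in Col-0. All SPL13 arrays were below the filter level, which the probe set passed through Col-0 and through mSPL13 (547, 289 and 446). Its value on the log2 scale was -1.78 ± 0.28 (SE, adjusted p = 0.0443), a call lost in 10 of 17 other settings. Another, brighter probe set of rps12 had signals of 182, 576 and 643 in SPL13 and 3811, 2665 and 1165 in Col-0. Its groups did not overlap, but it did not pass (log2 fold change -2.42 ± 0.47 (SE), adjusted p = 0.0821). The gene rps7, which is transcribed next to rps12, had signals of 562, 2046 and 1928 in SPL13 and 13365, 7577 and 4461 in Col-0. The groups were far apart, but at a log2 fold change of -2.53 ± 0.44 (SE) the gene did not pass (adjusted p = 0.0547).

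**Figure D4:**
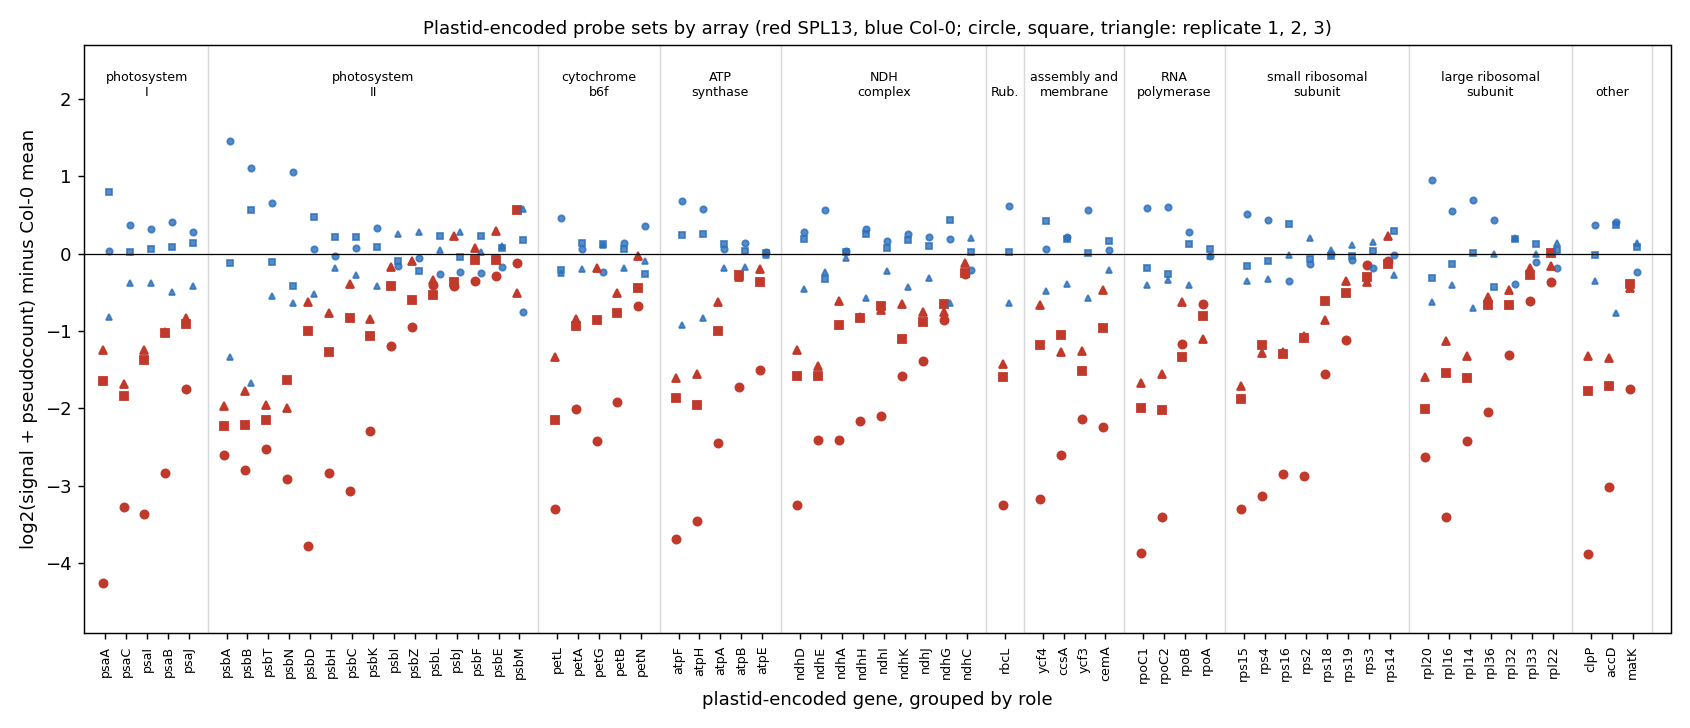
Log2(signal + pseudocount) minus the Col-0 mean for the 66 plastid-encoded genes with 1 copy, grouped by role along the x axis, with SPL13 arrays in red and Col-0 arrays in blue (circle, square and triangle are replicates 1, 2 and 3). SPL13 replicate 1 is the lowest point for most genes, and genes with values near 0, such as psbE, psbM and rps14, occur in the same roles as genes with the largest ones.

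The log2 fold changes of some neighbours on the plastid genome are given here, chosen after their values were seen and with no test of likeness. The run psbB, psbT, psbN and psbH had log2 fold changes of -2.26, -2.21, -2.18 and -1.62, followed by petB at -1.06 and rpoA at -0.85. The run psbE, psbF, psbL and psbJ, which is transcribed as a unit, had -0.03, -0.12, -0.42 and -0.19. Its neighbours petL and petG had -2.26 and -1.15. In the run of rpoB, rpoC1 and rpoC2, also transcribed together, the values were -1.04, -2.51 and -2.33. The genes atpH, atpF and atpA had -2.32, -2.39 and -1.35. Next to psaA (-2.39) and psaB (-1.63), rps14 had overlapping groups, although these 3 genes form 1 transcription unit. A probe set reports its own stretch of a transcript, so values within a unit need not be equal.

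Mitochondrially encoded transcripts were mostly too dim to test. Of 23 probe sets with 1 mitochondrial gene, 4 were tested and 0 passed, and over all 23, dim ones included, the log2 fold changes had a median of -0.04. Of the 4 tested, nad4 and mttB averaged below the filter level in SPL13 and passed it through the other genotypes. The gene ccmFN1, for a factor of cytochrome c assembly, had signals of 63.2, 292 and 222 in SPL13 and 1586, 845 and 519.7 in Col-0. Signals of nad4, a subunit of respiratory complex I, were 45.4, 105 and 103 in SPL13 and 604, 249.5 and 212 in Col-0. In both genes the groups did not overlap, SPL13 replicate 1 was lowest and Col-0 replicate 3 was the lowest Col-0 array. Their log2 fold changes were -2.30 ± 0.43 (SE, adjusted p = 0.0599) and -1.75 ± 0.37 (SE, adjusted p = 0.101). The gene cox1, a core subunit of cytochrome c oxidase, had 131, 140.4 and 105 in SPL13 and 332, 333 and 153 in Col-0, at a log2 fold change of -0.94 ± 0.24 (SE, adjusted p = 0.255). For mttB, a membrane transport protein, the groups overlapped, and the value was -0.58 ± 0.25 (SE, adjusted p = 0.52). Without Col-0 replicate 3, ccmFN1 fell (-2.67 ± 0.44, adjusted p = 0.0127), as did nad4 (-2.02 ± 0.39, adjusted p = 0.0246) and cox1 (-1.28 ± 0.18, adjusted p = 0.00867), all on the log2 scale with the SE.

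Nuclear genes that serve the plastid did not pass in any of the lists tested. The list of nuclear photosynthesis genes, such as those of light harvesting and carbon fixation, holds 58 genes, of which only 10 were tested. Of the 10, 0 passed, beside 0.0513% of all tested probe sets. Their median was 0.07 beside 0.01 over all probe sets, and the rest of the list was not measured. The member with the smallest p was PRK, the phosphoribulokinase of the Calvin cycle, with signals of 12981, 12042.5 and 14359.9 in SPL13 and 9904, 10642 and 12031 in Col-0. All SPL13 arrays lay above all Col-0 arrays, and the log2 fold change was 0.27 ± 0.11 (SE, adjusted p = 0.486). NdhS, a subunit of the chloroplast NDH complex that the nucleus encodes, had signals of 2985, 2799 and 2542 in SPL13 and 1595, 2224 and 2067 in Col-0. Its groups did not overlap, with higher signals in SPL13, in contrast to most of the plastid-encoded NDH genes, and it did not pass (log2 fold change 0.51 ± 0.14 (SE), adjusted p = 0.281). Of 24 genes of chlorophyll synthesis 8 were tested, with a median of 0.07 and 0 that passed. Of the nuclear-encoded factors of plastid transcription, sigma factors and phage-type polymerases among them, 0 had a tested probe set. The 2 tested pentatricopeptide repeat genes, whose family processes organelle RNA, had a median of 0.08.

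Measures of tissue make-up and RNA quality were as follows. The root markers with a probe set (4 of 8) summed to 25152 to 27228 in SPL13 and 26811 to 29424 in Col-0. The green cotyledon markers (3 of 10) summed to 50831 to 54349 in SPL13 and 47386 to 54030 in Col-0. The stomatal lineage markers (3 of 6) summed to 359 to 404 in SPL13 and 296 to 343 in Col-0. Of these SPCH, which starts the lineage, had 209, 229 and 292 in SPL13 and 157, 164 and 191 in Col-0, while MUTE and FMA were too dim to be tested and overlapped. Of these markers 0 passed and 0 were at 0, and 0 of 13 dry seed markers had a probe set. Broken RNA gives a higher ratio of 3' to 5' control signals, and this ratio was 2.59 ± 0.37 (SD, n = 3) in SPL13 and 2.60 ± 0.09 (SD, n = 3) in Col-0 for 1 pair of actin probe sets. For the other pair it lay between 17.1 and 33.0 in SPL13 and between 8.86 and 20.3 in Col-0, and SPL13 replicate 1 was the highest of these arrays. It was 0.95 ± 0.10 in SPL13 and 0.98 ± 0.03 in Col-0 for 1 GAPDH pair. In 6 such ratios the two-sided exact permutation test, which cannot give a p under 0.1 with 3 arrays against 3, found an adjusted p of 0.8 throughout. A control probe set for 25S ribosomal RNA had signals of 79.3, 127.5 and 217 in SPL13 and 191, 208 and 284 in Col-0. SPL13 replicate 1 was again lowest, and the groups overlapped. The 24 control probe sets for Bacillus transcripts, relative to the Col-0 mean on the log2 scale, had medians of -0.93, -0.18 and -0.28 in SPL13 and 0.14, -0.19 and -0.01 in Col-0. Here too SPL13 replicate 1 stood apart. The 18 hybridisation control probe sets (bio genes of E. coli and cre of phage P1) had medians of -0.22, -0.33 and -0.25 in SPL13 and 0.12, -0.10 and -0.02 in Col-0. For 11 of the 18 all SPL13 arrays were below all Col-0 arrays, and for 0 above. The part of these controls in the lower plastid and mitochondrial signals was not tested.

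Outside the organelles, 3 of 13567 tested probe sets passed, the 3 described above. The groups did not overlap for 952 probe sets higher in SPL13 and 760 lower, where the shares over all tested probe sets were 6.98% and 6.07%. Of these, 3 higher and 4 lower ones differed by at least 2-fold, beside 0.022% and 0.41% of all tested. With 3 arrays against 3, groups lie apart by chance in 10% of probe sets, both directions together, so this means little for a single gene. The nuclear genes next in order did not pass. The one with the largest higher value was AT5G61590 (DEWAX), an ERF-type factor that represses wax synthesis, with signals of 1319, 1263.5 and 1645 in SPL13 and 369, 336 and 1259.7 in Col-0. Col-0 replicate 3 was close to the SPL13 arrays, and Col-0 replicates 1 and 2 were far below. Its log2 fold change was 1.34 ± 0.34 (SE, adjusted p = 0.248). The other higher ones were AT1G23030, AT3G11850, AT2G15830 and ARLA1C, an ARF-like GTPase, with log2 fold changes of 0.44 to 0.75 (adjusted p of 0.216 to 0.281). Among the lower ones AT1G20070 had signals of 359, 297 and 242 in SPL13 and 929, 796 and 420.1 in Col-0. The groups were apart, with Col-0 replicate 3 the nearest to SPL13, and the log2 fold change was -1.14 ± 0.23 (SE, adjusted p = 0.089). Without that array it fell, with a log2 fold change of -1.48 ± 0.17 (SE, adjusted p = 0.00245). AT3G61490, AT1G64500, AT1G19020 and the cytochrome P450 gene CYP84A4 lay between -0.93 and -0.66 (adjusted p of 0.101 to 0.226).

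The 23 gene lists for pathways of the seedling and 28 gene families held 2089 genes together, for which 195 probe sets were tested. Of these 0 passed, beside 0.0513% of all tested probe sets, so the count says little about the pathways. Some lists and families, such as the SPL family, AP2/ERF-type factors and aquaporins, had no tested probe set. Medians of the 20 lists and families with at least 5 tested members ran from -0.75 to 0.12. The lowest was that of flavonoid and anthocyanin synthesis, with 5 tested, of which 4 were lower at an unadjusted p under 0.05 (4.49% of all tested probe sets were) and 0 had groups apart. DFR, the dihydroflavonol reductase that leads to anthocyanins, had signals of 241.5, 267 and 208.5 in SPL13 and 524, 704 and 197 in Col-0. Col-0 replicate 3 lay below all SPL13 arrays, while Col-0 replicates 1 and 2 were far above them. The log2 fold change was -0.77 ± 0.34 (SE, adjusted p = 0.531). UDP-glycosyltransferases, which attach sugars to small molecules, had 26 tested and a median of -0.16. Of these 6 were lower and 0 higher at an unadjusted p under 0.05, beside 4.49% lower and 4.34% higher over all tested probe sets, and 4 were lower with groups apart, beside 6.07%. In light signalling, HYH, a bZIP factor of photomorphogenesis, had signals of 361, 313 and 253 in SPL13 and 494, 431 and 385 in Col-0. Its groups did not overlap, and it did not pass (log2 fold change -0.48 ± 0.17 (SE), adjusted p = 0.437). STOMAGEN, a peptide that promotes stomata, had 1048, 901 and 911.5 in SPL13 and 1442, 1284 and 1063 in Col-0, again with groups apart and no pass (log2 fold change -0.39 ± 0.13 (SE), adjusted p = 0.436).

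The lists bearing on growth, hormones, phase change and cell division had medians of -0.22 to 0.03. The 20 tested genes of cell wall loosening had a median of -0.16, with 3 higher and 4 lower at an unadjusted p under 0.05, where 4.34% and 4.49% of all tested probe sets were. Auxin response had 6 tested and a median of -0.09, and gibberellin and cytokinin had 5 tested and a median of -0.21. The 4 tested genes of phase change and flowering time had a median of -0.22, and the one with the smallest p, FY, a factor of RNA 3' end processing, had -0.30 ± 0.18 (SE, adjusted p = 0.669). The 4 tested cell division genes had a median of 0.03. Among the factor families, bHLH had 5 tested and a median of 0.10, and WRKY had 5 tested and a median of -0.04. The cytochrome P450 family had 11 tested and a median of -0.01, and the glutathione S-transferases 8 and -0.15. In sugar starvation response AKINBETA1, a subunit of the SnRK1 kinase, had signals of 1055, 931 and 885 in SPL13 and 559, 833 and 738 in Col-0. Each SPL13 array was above each Col-0 array, and the gene did not pass (log2 fold change 0.44 ± 0.15 (SE), adjusted p = 0.432).

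Leaving out Col-0 replicate 3 changed the count of calls more than any other single array. Without it 148 probe sets passed, 46 higher (0.337%) and 102 lower (0.747%), and all 7 of the calls above were among them. Plastid genes named above that passed without it, but not with it, were psaB, psaC, psbA, psbB, psbN, petL, atpF, atpH, ndhD, ndhH, rbcL, rpoB, rpoC1, rpoC2, rpl20, ycf3, ccsA, clpP and accD, besides rps7 and the brighter probe set of rps12. Of the 148, 107 lay outside the organelles, 46 higher and 61 lower, and 33 were plastid genes with 1 copy, all lower. The array left out was singled out for lying near the SPL13 arrays, which favours such calls. The genes named next were chosen after their values were seen, and their log2 fold changes are given with the SE. DFR, with a log2 fold change of -1.28 ± 0.23 (adjusted p = 0.0178), and the anthocyanin glycosyltransferase UF3GT, with -1.25 ± 0.24 (adjusted p = 0.0235), were lower. So were AT4G14090 and the flavonol glycosyltransferase UGT78D2, which made 4 of 5 tested members of the flavonoid list. In the list of cell wall loosening, the expansins EXPB1 (-0.94 ± 0.17) and EXPB3 (-0.80 ± 0.16) were lower and the xyloglucan endotransglucosylase XTH33 (1.203 ± 0.164) higher, 3 of 20 tested. Of the UDP-glycosyltransferases, UGT76E11 (-0.88 ± 0.17), UGT71B1 (-0.71 ± 0.15), UGT78D2 and UF3GT were lower, 4 of 26 tested. AT5G61590 was higher by 1.93 ± 0.14 (adjusted p = 3.64e-05), as were ARLA1C (0.99 ± 0.16), FIS1B, a factor of organelle fission (1.03 ± 0.15), and ATG8E, of autophagy (1.00 ± 0.20). AT3G61490, AT1G64500 and AT1G19020 were lower, with log2 fold changes of -0.95 ± 0.19, -1.15 ± 0.21 and -0.95 ± 0.16.

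For these 148 probe sets Col-0 replicate 3 itself lay in different places. On a scale where 0 is the SPL13 mean and 1 the mean of Col-0 replicates 1 and 2, its median position was 0.61 for the 33 plastid genes and 0.13 for the 107 probe sets outside the organelles. It was nearer to the SPL13 mean for 4 of the 33 plastid genes and for 96 of the 107 others. The probe sets were chosen with Col-0 replicates 1 and 2 at the far end, so these positions are a description of that array.

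**Figure D5:**
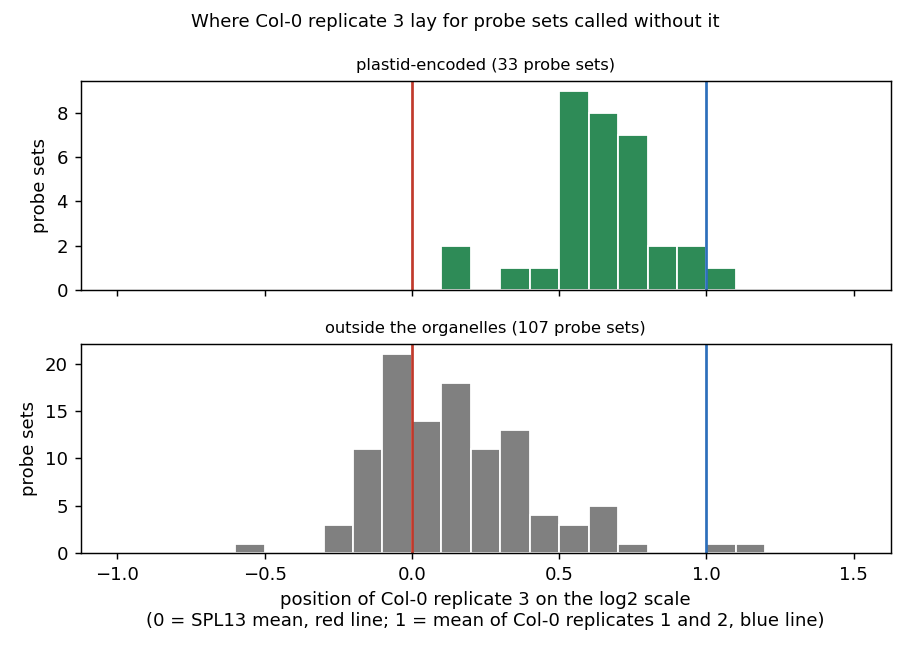
Number of probe sets (y axis) by the position of Col-0 replicate 3 on the log2 scale between the SPL13 mean (0, red line) and the mean of Col-0 replicates 1 and 2 (1, blue line), for the probe sets called without that array. The 33 plastid-encoded probe sets lie mostly between 0.5 and 0.8, and the 107 outside the organelles mostly between -0.2 and 0.4.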

How the data were processed

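Per the labels' protocols, total RNA was made into cDNA, transcribed by T7 into biotin-labelled cRNA and hybridised to 1-colour arrays. What the authors deposited are linear intensity signals from GCOS and MAS5, per the submitters' processing notes. The sources used here do not give the cDNA primer.

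To each signal the 20th percentile of all values, 20.7, was added before the log2, which understates folds of dim probe sets. Those averaging above 6.922 (40th percentile) on that scale were tested. Limma 3.58.1 (R 4.3.3) fitted the genotype means of the 9 arrays together, with eBayes and a trend (6 residual and 7.92 prior degrees of freedom), for the contrast SPL13 minus Col-0, with Benjamini-Hochberg adjustment. Errors are SD over 3 arrays or the moderated SE, and the number of arrays limits the precision. In simulated data with independent noise, the fit recovered 31.3% of 1.5-fold, 89.6% of 2-fold and 92.4% of 4-fold changes, with 2.1% false calls. Such noise holds no shift shared by many probe sets of an array, so these shares do not measure the power in the real data. The plastid gene rpoC1, for example, was 5.70-fold lower in SPL13 and did not pass.

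The array has 22810 probe sets, of which 64 are controls. The platform table names 1 gene for 13513, several for 503 and none for 8730. Names, genome of origin and gene order came from the TAIR10.1 gene table, which held 13436 of the 13513. Nuclear genes named are those called, filled to 6 each way by smallest p among those with groups apart, and per list the member with the smallest p. Plastid genes named are those called and, chosen after their values were seen, examples for each role. The members, lists and families were chosen with earlier results of these data known. Genes that matched a list or family only by a shared symbol or a clone name, such as a chitinase called CHI, were left out. Python 3.11.15, pandas 2.3.3, numpy 2.4.6, scipy 1.17.1 and matplotlib 3.10.9 made the tables and figures. Alternatives were other pseudocounts, filters, scalings, variance models, thresholds and samples.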

Additional observations from a re-analysis of the deposited data

Results flagged for a closer look

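The control probe set U12639 lies outside the comparisons across genes and carried a signal well above that of the untransformed seedlings. Its mean was 27028 ± 1007 (SD, n = 3) in SPL13, with signals of 25867, 27665 and 27552, against 29.7, 3.1 and 2.3 in Col-0. In mSPL13 it was 31763 ± 2903 (SD, n = 3). All transformed arrays were high and all Col-0 arrays near 0. The tables used here do not say which transcript it detects.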

How the results depend on the processing

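The count of 7 calls was 2 with the compared groups only, 11 with either kind of median centring, 14 with the highest pseudocount (40th percentile), and 1 with no filter on low signal, without trend or at an adjusted p under 0.01. It was 39 at an adjusted p under 0.1, and ran from 1 to 148 when 1 array was left out. Of these, plastid calls (3) numbered 1 with the compared groups only, 7 with either median centring, 9 with the highest pseudocount, 6 with quantile normalization, 0 with no filter on low signal, without trend or at 0.01, 27 at 0.1, and 0 to 33 with 1 array left out (0 without Col-0 replicate 1, Col-0 replicate 2 or SPL13 replicate 2, 13 without SPL13 replicate 1, 30 without SPL13 replicate 3, 33 without Col-0 replicate 3). Calls outside the organelles (3) numbered 1 with the compared groups only, with no filter on low signal, without trend, at 0.01 and, added after seeing the data, without organelle probe sets, 8 at 0.1, and 1 to 107 with 1 array left out. Mitochondrial calls (0) numbered 1 at 0.1, and 0 to 3 with 1 array left out. The plastid median stayed negative throughout, from -1.67 to -0.88. The mitochondrial median of -1.35 was -1.75 with the compared groups only and -2.30 with the filter at the 60th percentile (both with other probe sets tested), -0.042 with no filter on low signal, -0.95 with the highest pseudocount, and -1.653 to -1.045 with 1 array left out. With the replicate number as a block the counts were 8 in all and 5 plastid. The numbers do not pair the samples: deviations of same-numbered SPL13 and Col-0 arrays correlated at -0.04, -0.04 and 0.14, and 1 of 3 SPL13 arrays correlated best with its own number. The cause of these changes was not tested. The fold changes of named genes kept their sign in all settings for those called. Signals near the pseudocount, as for psbN and the mitochondrial genes, limit what can be measured.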

Other observations

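A few probe sets outside the rule for named genes are given here because their values stood out once seen. AT1G48870 had the largest positive log2 fold change of all tested probe sets, 2.79 ± 1.34 (SE, adjusted p = 0.58). Its signals were 61.4, 54.4 and 12215 in SPL13 and 7.6, 67.0 and 70.4 in Col-0. The value rests on SPL13 replicate 3, and the groups overlapped. A probe set that pairs with both AT5G33355 and AT3G59930 had signals of 1816, 1945 and 2552 in SPL13 and 741, 828 and 1409 in Col-0. All SPL13 arrays lay above all Col-0 arrays, and it did not pass (log2 fold change 1.11 ± 0.22 (SE), adjusted p = 0.0798). AT1G60590 had signals of 183, 122 and 92.0 in SPL13 and 744, 788 and 169 in Col-0. Its Col-0 replicate 3 was close to SPL13 replicate 1, and the groups overlapped. Its log2 fold change was -1.72 ± 0.41 (SE, adjusted p = 0.198), and without Col-0 replicate 3 it was -2.40 ± 0.21 (SE, adjusted p = 0.000148).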
